A study of Mus musculus with 12 samples.

Results

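The 7 genes described here encode proteins of epithelial chloride secretion, the transport that fills kidney cysts with fluid: the chloride channels *Cftr*, *Ano1*, *Clcn2* and *Lrrc8a*, the channel and lipid scramblase *Ano6*, the basolateral chloride entry transporter *Slc12a2*, and the potassium channel *Kcnn4*. They were taken by gene name from a table of 54532 genes; each name occurred once, and all 7 passed the filter on low counts that left 24642 genes for testing. RNA of whole kidneys, flash frozen at 18 days of age, was sequenced from 12 C57BL/6 mice (C57BL/6 J in the study's methods) in 4 groups of 3. Every mouse carried 1 *Pkd1* RC allele, a hypomorphic missense mutation. The control mice (labelled Pkd1_RC) were noncystic and had wild-type *Pkd2* (*Pkd2* +/+); the study writes their *Pkd1* genotype as RC/+ and also describes controls with an RC and a floxed allele but no Cre. A further noncystic group (labelled Pkd1_RC_Pkd2_UTR_DD) was homozygous for Δ17, a CRISPR deletion of the miR-17 binding motif from the 3′-UTR of *Pkd2* (*Pkd2* Δ17/Δ17). The cystic mice (labelled Pkd1F_RC with *Pkd2* +/+, and Pkd1F_RC_Pkd2_UTR_DD with *Pkd2* Δ17/Δ17) also carried Ksp-Cre, which is driven by the promoter of the kidney cadherin *Cdh16* in tubule epithelium and deletes the floxed *Pkd1* allele there (*Pkd1* RC/-). Cre is thus not driven in vessels, interstitium or blood cells, and the RNA of all of these was measured together with that of the tubules.

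In a secreting epithelium, *Slc12a2* (NKCC1) loads chloride into the cell across the basolateral membrane, and apical channels let it out into the lumen, with sodium and water following. *Cftr* is the channel opened by cyclic AMP, and *Ano1* (TMEM16A) the channel opened by calcium. Basolateral potassium channels such as *Kcnn4* (KCa3.1) return potassium and keep the cell negative, which drives chloride out. *Clcn2* (ClC-2) opens on hyperpolarisation, *Lrrc8a* is the obligatory subunit of the volume-regulated anion channel, and *Ano6* (TMEM16F) moves phospholipids across the membrane and conducts ions when calcium rises.

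Because the deleted element is a site for miR-17, the longest annotated 3′-UTR of each of the 7 genes was searched on the sense strand for the complement of the miR-17 seed, GCACTTT. *Ano6* alone of the 7 held a match, at chr15:95972725-95972731 in exon 20, the last exon, starting 24 nucleotides after the stop codon. Of 16767 tested genes with an annotated 3′-UTR, 13.1% held at least 1. The mature miRNA is shown with its seed (bases 2 to 8) in capitals, from RefSeq on GRCm38.p6, followed by the *Ano6* stretch (chr15:95972714-95972742, forward strand) and, for comparison, the stretch of the unedited *Pkd2* allele that holds the match removed in Δ17 mice (chr5:104503810-104503838, forward strand), with the seed match in capitals.
mmu-miR-17-5p: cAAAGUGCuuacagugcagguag
Ano6 3′-UTR: ggcctggagaaGCACTTTaaagagaatta
Pkd2 3′-UTR: tataattttctGCACTTTaatttatttta
Both matches are followed by an A. A match is a stretch of letters only, and no binding was measured. The deletion edits *Pkd2* and not *Ano6*, and the study describes miR-17 as still free to act on its other targets.

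Since cyclic AMP drives cyst secretion, the RefSeq promoters (250 bases before to 50 after the gene start, GRCm38.p6) of 6 members were also searched for the cyclic AMP response element TGACGTCA, which reads the same on both strands, and for the shorter TGACG on either strand. The *Lrrc8a* promoter alone held the full element, 108 bases before the RefSeq start (chr2:30237661-30237668), where 1.79% of 32851 promoters of this length did. Its surroundings (chr2:30237650-30237679, forward strand) are shown with the element in capitals.
Lrrc8a promoter: gcgtccggccgTGACGTCActtccggggcg
The shorter element occurred once each in the promoters of *Ano6* and *Clcn2*, and in *Lrrc8a* only within the full element, against 20.8% of all promoters with at least 1 match. No promoter of *Slc12a2* was analysed here, and the promoters of *Cftr*, *Ano1* and *Kcnn4* held neither. The RefSeq starts of *Lrrc8a*, *Ano1* and *Clcn2* used here lie inside the genes, downstream of the outermost starts given below.

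All 7 genes are protein coding and their positions are given in the mouse genome build GRCm38. *Cftr* (ENSMUSG00000041301) lies on chromosome 6 from 18170687 to 18322768, *Ano1* (ENSMUSG00000031075) on chromosome 7 from 144588549 to 144751974, and *Ano6* (ENSMUSG00000064210) on chromosome 15 from 95790843 to 95974751. *Slc12a2* (ENSMUSG00000024597) lies on chromosome 18 from 57878678 to 57946821, and *Kcnn4* (ENSMUSG00000054342) on chromosome 7 from 24370263 to 24386690. *Clcn2* (ENSMUSG00000022843) is on chromosome 16 from 20702964 to 20717746, and *Lrrc8a* (ENSMUSG00000007476) on chromosome 2 from 30237715 to 30263790. *Ano1* and *Clcn2* are on the reverse strand and the others on the forward strand.

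The deposited values are raw counts of reads per gene, with totals of 18800307 to 24453033 per mouse. The reads of a member in a mouse numbered 1873 to 2875 for *Ano6*, 1231 to 1845 for *Slc12a2*, 459 to 985 for *Ano1*, 359 to 567 for *Clcn2*, 249 to 491 for *Lrrc8a*, 89 to 139 for *Cftr* and 22 to 58 for *Kcnn4*. Levels below are CPM, read counts relative to the size of the library after scaling with TMM factors, which correct for library composition, and p-values measure the spread between these mice only. *Pkd2* itself stood at 194 to 219 CPM in noncystic *Pkd2* +/+ mice against 271 to 286 CPM in noncystic Δ17/Δ17 mice, and at 213 to 233 CPM against 307 to 337 CPM in the cystic mice, without overlap. By edgeR the *Pkd2* difference was called in cystic mice (log2 fold change 0.53, adjusted p = 0.00249). It was not called in noncystic mice (0.40, unadjusted p = 8.21e-05, adjusted p = 0.771). The cystic and the noncystic effect differed by 0.13 (unadjusted p = 0.268, adjusted p = 0.818 in the same edgeR test). A response of *Pkd2* RNA in cystic kidneys only is thus not shown. In whole kidney RNA, fewer cells of a type and less RNA per cell cannot be told apart. Between noncystic and cystic *Pkd2* +/+ kidneys, the summed CPM of 8 proximal tubule markers (*Slc34a1*, *Lrp2* and others) was 14581 to 15217 against 5024 to 6645, with 8 of 8 lower. That of 8 macrophage markers (*Adgre1*, *Csf1r* and others) was 184 to 192 against 455 to 623, with 8 of 8 higher, and 5 of 9 collecting duct principal cell markers (*Aqp2*, *Aqp3* and others) were higher. The part of these shifts in the results below was not tested.

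**Figure D1:**
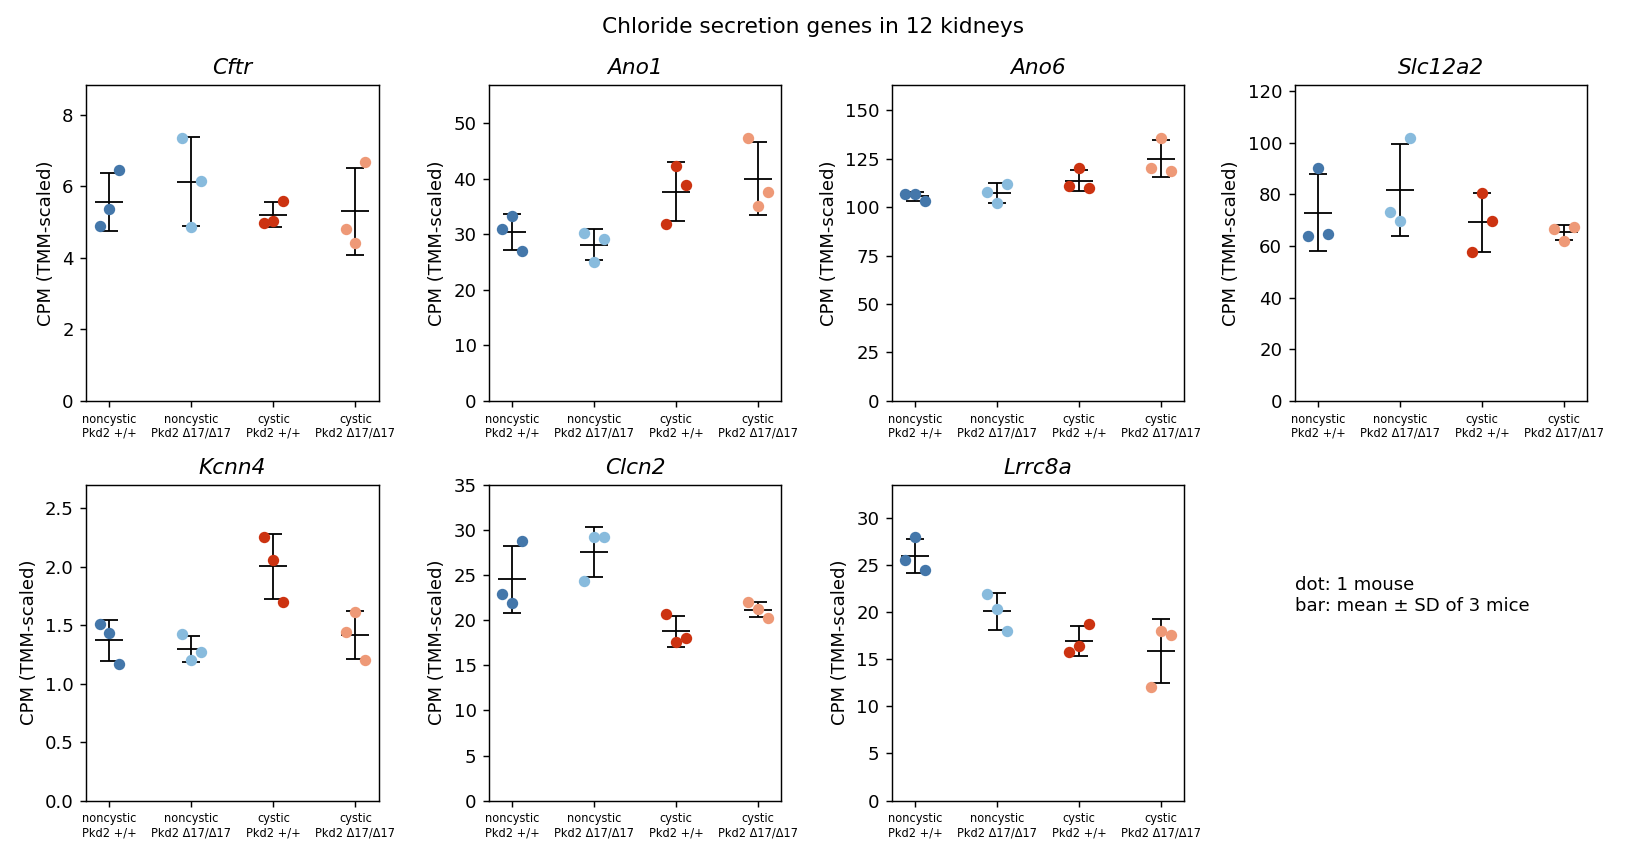
TMM-scaled CPM (vertical axes, from 0) of each of the 7 genes in the 4 groups of 3 mice, with 1 dot per mouse and bars for mean ± SD. *Lrrc8a* and *Clcn2* lie lower in both cystic groups than in noncystic *Pkd2* +/+ mice on average, *Kcnn4* is highest in cystic *Pkd2* +/+ mice (1.70 to 2.25 CPM), and *Cftr* overlaps in all groups.

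Cystic and noncystic kidneys with wild-type *Pkd2* were compared first, to ask which secretion genes differ with cystic disease. *Clcn2* and *Lrrc8a* were called lower, and none of the 7 was called higher. By the quasi-likelihood test of edgeR, with p-values adjusted after Benjamini and Hochberg, 31.1% of all 24642 genes passed an adjusted p of 0.05 in this comparison (16.9% higher and 14.2% lower), so 2 of 7 is no more than the share among all genes. The median log2 fold change of the members was -0.076, against 0.019 over all genes tested. The groups did not overlap for 4 members (*Ano6* and *Kcnn4* higher, *Clcn2* and *Lrrc8a* lower), while 41.7% of all genes did not overlap.

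*Lrrc8a*, without which no volume-regulated anion channel forms, had the largest fall among the members. It stood at 25.5, 27.9 and 24.4 CPM in the noncystic *Pkd2* +/+ mice and at 15.7, 16.4 and 18.7 CPM in the cystic *Pkd2* +/+ mice. Every cystic mouse lay below every noncystic one. The means were 26 ± 1.81 and 16.9 ± 1.60 CPM (SD, n = 3 each), giving a log2 fold change of -0.62 (standard error, SE, 0.14, adjusted p = 0.00267 by edgeR), or 0.653 times the control level. The call held with each mouse left out in turn (log2 fold change -0.69 to -0.56) and in every alternative run, with adjusted p-values up to 0.0197.

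The *Lrrc8a* counts come from a restricted piece of the gene. Of its 4308 exon bases, 2853 (66.2%), including all 2430 coding bases, also belong to *Gm28035*, an annotated gene that reads through *Lrrc8a* on the same strand. STAR's gene counting keeps a read only where it overlaps a single gene, so the *Lrrc8a* reads fall on the 1455 unshared bases, of which 93.7% lie after the coding sequence. *Gm28035* itself had 0 to 3 reads per mouse. The *Lrrc8a* values are thus in the main counts on its 3′-UTR, and the level over its coding exons was not measured here. The other members share at most 1.74% of their exon bases with any 1 other gene, all of it with genes on the opposite strand.

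*Clcn2*, a chloride channel of the plasma membrane with a wide tissue distribution, was the other member that fell. It stood at 22.9, 21.9 and 28.8 CPM in the noncystic *Pkd2* +/+ mice and at 20.7, 17.6 and 18.0 CPM in the cystic *Pkd2* +/+ mice. The groups did not overlap, but the highest cystic mouse and the lowest noncystic mouse were close. In *Clcn2* the log2 fold change was -0.39 (SE 0.12, adjusted p = 0.0191 by edgeR), or 0.765 times the control level. This call depended on single mice and on scaling: without mouse 21, the noncystic mouse with the highest level, the log2 fold change was -0.27 (adjusted p = 0.0950), without cystic mice 26 or 27 it was -0.34 (adjusted p = 0.0659) and -0.36 (adjusted p = 0.0660), and with library totals in place of TMM factors it was -0.23 (adjusted p = 0.169).

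*Ano1*, the calcium-activated chloride channel, was 30.9, 33.3 and 27 CPM in the noncystic *Pkd2* +/+ mice and 31.9, 42.3 and 38.8 CPM in the cystic *Pkd2* +/+ mice. Cystic mouse 25 lay within the noncystic range and the other two above it. Its log2 fold change of 0.31 (SE 0.13, 95% interval 0.03 to 0.58) had an adjusted p of 0.0844 in the edgeR test and did not pass. It passed without mouse 25 (0.42, adjusted p = 0.0208), without the filter on low counts (0.31, adjusted p = 0.0228), and with library totals (0.47, adjusted p = 0.00799).

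*Kcnn4*, the calcium-activated potassium channel that keeps up the driving force for secretion, had the fewest reads of the 7. It stood at 1.51, 1.43 and 1.17 CPM in the noncystic *Pkd2* +/+ mice and at 2.25, 2.06 and 1.70 CPM in the cystic *Pkd2* +/+ mice, which all lay above. With 23 to 29 reads against 36 to 58 reads per mouse, the log2 fold change of 0.55 (SE 0.26, 95% interval 0.01 to 1.09) had an adjusted p of 0.122 in the edgeR test and did not pass. With library totals it passed in edgeR (0.71, adjusted p = 0.0399) but not in limma-trend (0.65). *Kcnn4* is also known from macrophages and red blood cells: the macrophage markers rose as given above, and the summed CPM of 5 red blood cell markers (*Hba-a1*, *Hba-a2* and others) was 591 to 969 in noncystic against 251 to 353 in cystic *Pkd2* +/+ kidneys, with 5 of 5 lower. The part of either in the *Kcnn4* values was not tested.

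*Ano6*, the calcium-activated scramblase, was 107, 107 and 103 CPM in the noncystic *Pkd2* +/+ mice and 111, 120.2 and 110.1 CPM in the cystic *Pkd2* +/+ mice. The groups did not overlap, but the log2 fold change was only 0.11 (SE 0.07, 95% interval -0.05 to 0.26, adjusted p = 0.317 by edgeR). With library totals it was 0.26 and passed (adjusted p = 0.00613).

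*Cftr*, the cyclic AMP-gated channel most often named in cyst secretion, did not pass in any comparison. Its level was 4.88, 5.36 and 6.46 CPM in the noncystic *Pkd2* +/+ mice and 4.96, 5.04 and 5.60 CPM in the cystic *Pkd2* +/+ mice, which all lay within the noncystic range. The log2 fold change was -0.10 (SE 0.20), with a 95% interval from -0.53 to 0.33 and an adjusted p of 0.768 in the edgeR test. With 89 to 139 reads per mouse and this spread, changes within that interval could not be told from 0.

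*Slc12a2*, the basolateral entry step, was 63.9, 90.3 and 64.6 CPM in the noncystic *Pkd2* +/+ mice and 57.6, 80.5 and 69.5 CPM in the cystic *Pkd2* +/+ mice. The mice of a group differed more from each other than the groups did. This gave a log2 fold change of -0.08 (SE 0.15, 95% interval -0.40 to 0.25, adjusted p = 0.763 by edgeR).

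Several of these calls turned on the scaling. The TMM factors were 0.933 to 0.972 in the 6 noncystic and 1.04 to 1.08 in the 6 cystic libraries, and scaling by library totals alone raised the log2 fold change of the median gene by 0.158. Under library totals in edgeR *Ano1*, *Ano6* and *Kcnn4* passed as higher (*Kcnn4* not in limma-trend) and *Lrrc8a* alone as lower, while 35.4% of all genes passed (6251 higher and 2468 lower, against 4170 and 3495 with TMM factors). *Cftr* (0.06) and *Slc12a2* (0.08) then turned to the other sign, neither passing. The fall of *Lrrc8a* was the only member call in this comparison that held under every scaling tried.

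**Figure D2:**
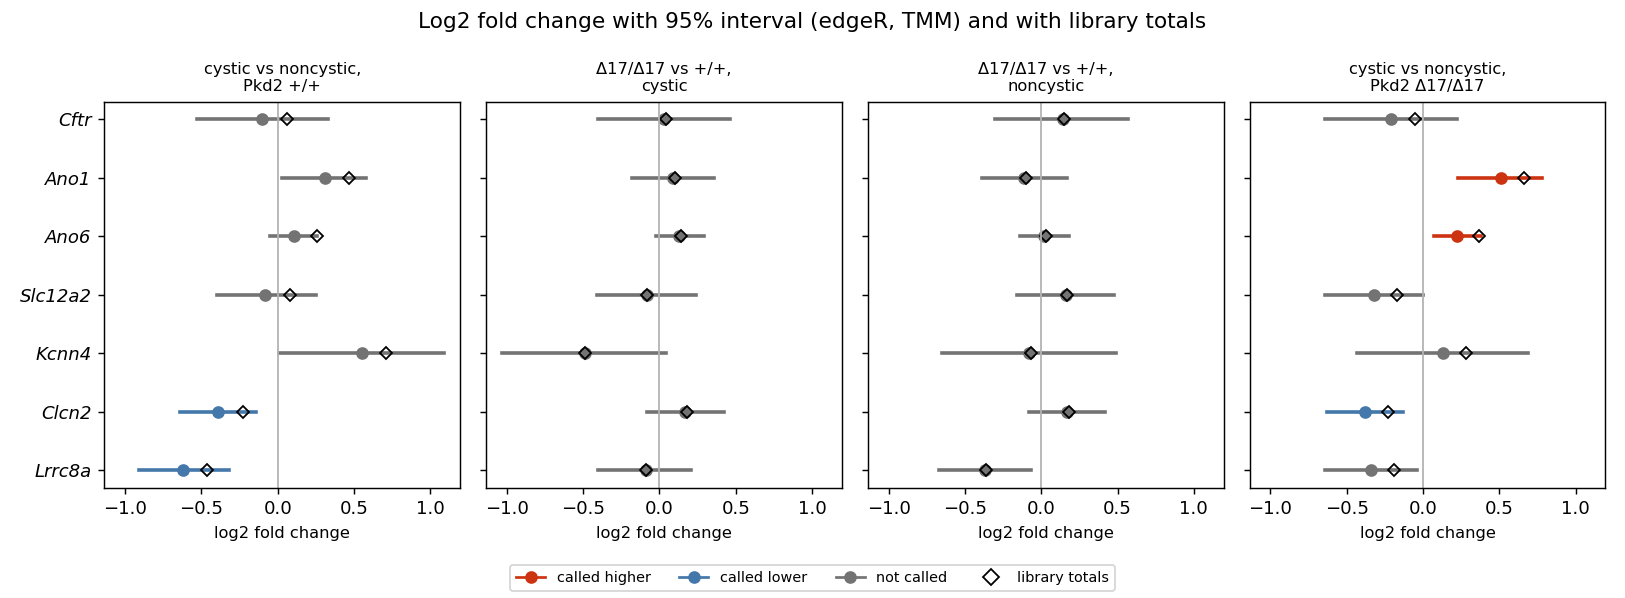
Log2 fold change (horizontal axes) of the 7 genes in 4 comparisons: dots and lines are TMM-scaled estimates with 95% intervals from edgeR, coloured by call, and diamonds are estimates with library totals. With *Pkd2* +/+, *Lrrc8a* (-0.62) and *Clcn2* (-0.39) are called lower in cystic kidneys; diamonds shift to the right in both comparisons of cystic with noncystic kidneys and lie on the dots in both comparisons of the deletion.

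Cystic and noncystic kidneys were also compared among *Pkd2* Δ17/Δ17 mice, which shares no mouse with the comparison above. *Ano1* and *Ano6* rose and *Clcn2* fell, 3 of 7 members, where 23% of all genes passed (12.8% higher and 10.2% lower). Among genes with at least 10 counts in every mouse, as all 7 members had, 39.5% passed. With library totals 2 members were called, *Ano1* and *Ano6*, and the calls over all genes were 5334 higher and 1657 lower, against 3164 and 2515. The median log2 fold change of the members was -0.209, against -0.003 over all genes. Groups did not overlap for *Ano1*, *Ano6*, *Clcn2* and *Slc12a2*, as for 37.9% of all genes.

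*Ano1* stood at 30.2, 25 and 29.2 CPM in the noncystic Δ17/Δ17 mice and at 47.4, 35.1 and 37.6 CPM in the cystic Δ17/Δ17 mice. All cystic mice lay above all noncystic ones, by a log2 fold change of 0.51 (SE 0.13, adjusted p = 0.00819 by edgeR), or 1.42-fold. Without noncystic mouse 23 the adjusted p was 0.0548 and without cystic mouse 28 it was 0.0550, with log2 fold changes of 0.41 and 0.37. *Ano1* is also a marker of smooth muscle and interstitial pacemaker-type cells. The summed CPM of 4 markers of such cells (*Myh11*, *Cnn1* and others) was 101 to 131 in the noncystic and 112 to 119.9 in the cystic Δ17/Δ17 kidneys, with 0 of 4 passing in this comparison, and 107 to 134 against 134 to 163 with *Pkd2* +/+, where 2 of 4 were higher. Their part in the *Ano1* values was not tested.

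*Ano6* stood at 108, 102 and 112 CPM in the noncystic Δ17/Δ17 mice and at 120.2, 136 and 119 CPM in the cystic Δ17/Δ17 mice. The groups did not overlap, and the log2 fold change was 0.22 (SE 0.07, adjusted p = 0.0382 by edgeR), or 1.17-fold. This call was lost without mouse 22, 23, 24 or 29 (log2 fold change 0.16 to 0.25, adjusted p = 0.0525 to 0.198), with DESeq2's size factors (adjusted p = 0.0727), without the filter (0.0708), with only the compared groups fitted (0.0648) and with *Xist* as a covariate (0.0662).

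*Clcn2* was 24.4, 29.2 and 29.2 CPM in the noncystic Δ17/Δ17 mice and 22, 21.2 and 20.3 CPM in the cystic Δ17/Δ17 mice, again without overlap. Its log2 fold change was -0.38 (SE 0.12, adjusted p = 0.0272 by edgeR). It was close to that with *Pkd2* +/+, and likewise did not pass with library totals (-0.23, adjusted p = 0.187) or without mouse 23, 24, 29 or 30 (-0.38 to -0.34, adjusted p = 0.0720 to 0.102). Leaving out each mouse of these groups in turn left between 0 and 2 members called: 0 without mouse 23, and 1 without mouse 24 or 29.

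*Lrrc8a* was 21.9, 20.3 and 18.0 CPM in the noncystic Δ17/Δ17 mice and 12, 18.0 and 17.6 CPM in the cystic Δ17/Δ17 mice. Mouse 28, at 12 CPM, stood well below the others, and the groups touched at 18.0 CPM. For *Lrrc8a* the log2 fold change of -0.34 (SE 0.14) did not pass (adjusted p = 0.103 by edgeR). Whether it differed from the -0.62 with *Pkd2* +/+ was tested as an interaction, which was 0.28 (SE 0.20, 95% interval -0.15 to 0.70, adjusted p = 0.767 in the same edgeR test).

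*Slc12a2* was 73.0, 69.8 and 102 CPM in the noncystic Δ17/Δ17 mice and 66.6, 62.0 and 67.2 CPM in the cystic Δ17/Δ17 mice. All cystic mice lay below, at a log2 fold change of -0.32 (SE 0.15, adjusted p = 0.157 by edgeR), and the difference passed when no filter on low counts was used (adjusted p = 0.00479). *Cftr* was 7.36, 4.86 and 6.16 CPM in the noncystic and 4.81, 4.40 and 6.69 CPM in the cystic Δ17/Δ17 mice, and *Kcnn4* 1.42, 1.2 and 1.27 CPM against 1.44, 1.61 and 1.2 CPM. These groups overlapped, with log2 fold changes of -0.21 (95% interval -0.64 to 0.22) and 0.13 (95% interval -0.43 to 0.69).

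The effect of removing the miR-17 motif from *Pkd2* was then asked within the cystic kidneys. No member passed (0 of 7, and 0 of 7 also at an unadjusted p under 0.05, with limma-trend and with DESeq2), where 2.23% of all genes did. At an unadjusted p under 0.05 there were 3532 of all 24642 genes. The cystic *Pkd2* +/+ mice of this comparison are the same mice as in the comparison with noncystic *Pkd2* +/+ kidneys. *Kcnn4* was the member with the lowest p: its mean was 2.0 ± 0.280 CPM in cystic *Pkd2* +/+ mice and 1.42 ± 0.207 CPM in cystic Δ17/Δ17 mice (SD, n = 3 each), and all Δ17/Δ17 mice lay below. The *Kcnn4* log2 fold change of -0.49 (SE 0.25, 95% interval -1.03 to 0.04) had an unadjusted p of 0.0686 and an adjusted p of 0.401 in the edgeR test. Over all genes, 19% did not overlap between these groups. The summed CPM of the macrophage markers moved in the same direction, from 455 to 623 in cystic *Pkd2* +/+ mice to 318 to 438 in cystic Δ17/Δ17 mice, with 4 of 8 called lower; their part in the *Kcnn4* values was not tested.

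For the other members the deletion in cystic kidneys gave log2 fold changes of 0.17 for *Clcn2* (95% interval -0.08 to 0.42), 0.13 for *Ano6* (-0.02 to 0.29), 0.09 for *Ano1* (-0.18 to 0.36) and 0.03 for *Cftr* (-0.40 to 0.46). *Slc12a2* stood at -0.08 (95% interval -0.41 to 0.24) and *Lrrc8a* at -0.09 (-0.40 to 0.21). *Ano6*, the member with a seed match of its own, stood at 114 ± 5.50 CPM with *Pkd2* +/+ and 125 ± 9.59 CPM with Δ17/Δ17 (SD, n = 3 each), with overlap. Each of these intervals includes 0, which does not show that the members were alike in the cystic groups.

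In noncystic kidneys the deletion likewise gave 0 of 7 members called, where 0.00406% of all genes passed. At an unadjusted p under 0.05 there was 1, *Lrrc8a*, beside 1555 of all 24642 genes, and 0 passed with limma-trend or DESeq2. *Lrrc8a* stood at 26 ± 1.81 CPM in noncystic *Pkd2* +/+ mice and at 20.1 ± 1.97 CPM in noncystic Δ17/Δ17 mice (SD, n = 3 each), and the groups did not overlap, as for 10.8% of all genes. The log2 fold change was -0.37 (SE 0.14, 95% interval -0.67 to -0.07), with an unadjusted p of 0.0178 and an adjusted p of 0.771 in the edgeR test. The noncystic *Pkd2* +/+ mice thus held the highest *Lrrc8a* levels of the 4 groups, and they are the control of the called difference above. The remaining log2 fold changes ran from -0.11 for *Ano1* (95% interval -0.39 to 0.17) to 0.17 for *Clcn2* (-0.08 to 0.42), all with overlap.

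The interaction, the difference between the effects of the deletion in cystic and in noncystic kidneys, passed for 0 of 7 members (0 at an unadjusted p under 0.05, and 0 with limma-trend or DESeq2), where 0.0122% of all genes did and 2053 of the 24642 had an unadjusted p under 0.05. Its estimates ran from -0.42 for *Kcnn4* (95% interval -1.20 to 0.36) to 0.28 for *Lrrc8a*. That *Ano1* and *Ano6* passed only in Δ17/Δ17 mice and *Lrrc8a* only in *Pkd2* +/+ mice is therefore not shown to be a difference between *Pkd2* genotypes: the interactions of *Ano1* and *Ano6* were 0.20 (SE 0.18, adjusted p = 0.830) and 0.12 (SE 0.10, adjusted p = 0.827) in the edgeR test.

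Levels of different genes were compared only per length, as CPM per kb of merged exons. The length matters: over the 12 mice *Ano6* was 9.21 CPM per kb of merged exons and 22.9 per kb of its longest transcript. *Lrrc8a* was 4.57 per kb of merged exons but 13.5 per kb of the exon bases it shares with no gene of its strand, a length chosen after the data were seen, and its place in the order below holds for merged exons only. In all 4 groups *Ano6* had the highest mean level (8.63 to 10.2 CPM per kb), *Cftr* was sixth (0.670 to 0.789 CPM per kb) and *Kcnn4* last (0.253 to 0.391 CPM per kb). In noncystic *Pkd2* +/+ kidneys the order between them was *Slc12a2* (6.68), *Lrrc8a* (6.02), *Ano1* (4.87) and *Clcn2* (4.08), where the mice of *Slc12a2* and *Lrrc8a* overlapped, as did those of *Ano1* and *Clcn2*. With the deletion, *Lrrc8a* (4.66), *Clcn2* (4.58) and *Ano1* (4.51) overlapped from neighbour to neighbour, and so did *Ano6* (8.74) and *Slc12a2* (7.46).

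In cystic *Pkd2* +/+ kidneys the order of levels was *Ano6* (9.28 CPM per kb), *Slc12a2* (6.34), *Ano1* (6.03), *Lrrc8a* (3.93), *Clcn2* (3.12), *Cftr* (0.670) and *Kcnn4* (0.391), and only *Slc12a2* and *Ano1* overlapped as neighbours. Per kb of merged exons, *Ano1* stood above *Lrrc8a* and *Clcn2* in these kidneys, and below *Lrrc8a* in their noncystic controls, in every mouse. The place of *Lrrc8a* holds for that length only. Averaged over all mice, *Lrrc8a* was 4.57 CPM per kb of merged exons but 13.5 per kb of its unshared exon bases. *Ano1* was 5.45 per kb of merged exons. In cystic Δ17/Δ17 kidneys *Ano1* (6.41) and *Slc12a2* (5.98) overlapped, as did *Lrrc8a* (3.68) and *Clcn2* (3.52).

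**Figure D3:**
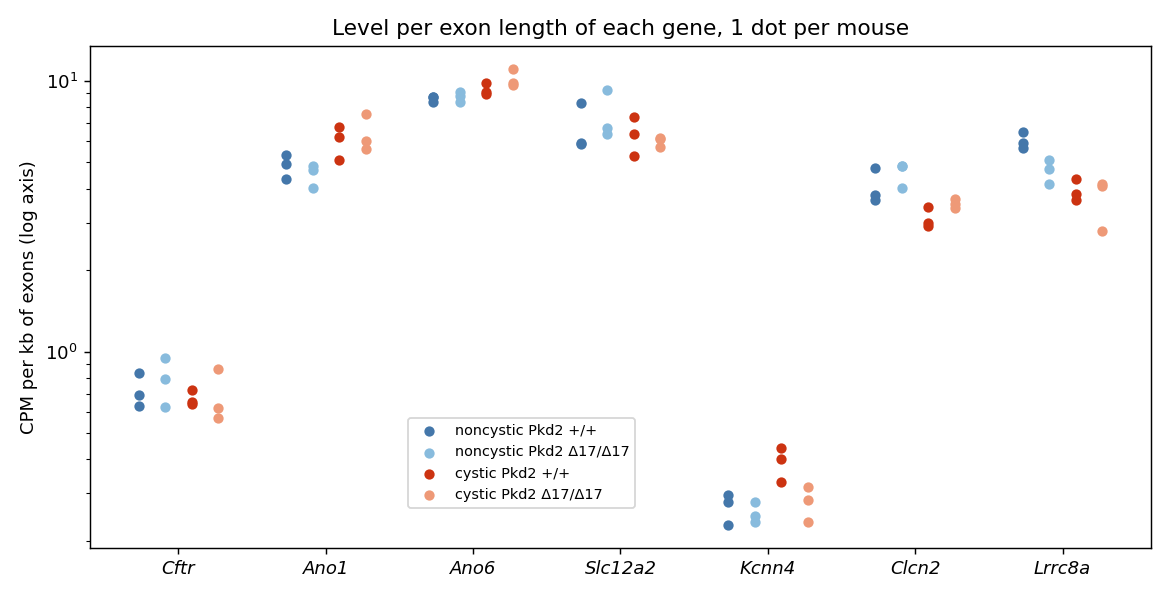
CPM per kb of merged exons (vertical log axis) of the 7 genes, with 1 dot per mouse coloured by group. *Ano6* lies highest, at group means of 8.63 to 10.2; *Cftr* and *Kcnn4* lie below all other members in every mouse.

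The genes around the members were taken from 13 lists of 155 other genes of epithelial ion transport and its control, of which 150 were tested. Between cystic and noncystic *Pkd2* +/+ kidneys 88 of the 150 passed (58.7%), 32 higher and 56 lower, with a median log2 fold change of -0.158. Of all genes tested 31.1% passed, and of the genes with at least 10 counts in every mouse 49.7%. Under that filter 31 of the transport genes were called higher and 56 lower. The number of transport genes that met it is not given here, so these calls have no share to set beside 49.7%. With library totals the split was 40 higher and 40 lower. The nephron segments that reabsorb salt are the known site of many of these genes, and 5 of 5 distal convoluted tubule markers (*Slc12a3*, *Pvalb* and others) and 4 of 6 thick ascending limb markers (*Umod*, *Slc12a1* and others) were lower in the same comparison, while 1 of 6 of the latter was higher. The markers *Slc12a1* and *Slc12a3* are also among the transport genes called lower. What part these segments had in the calls was not tested.

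**Figure D4:**
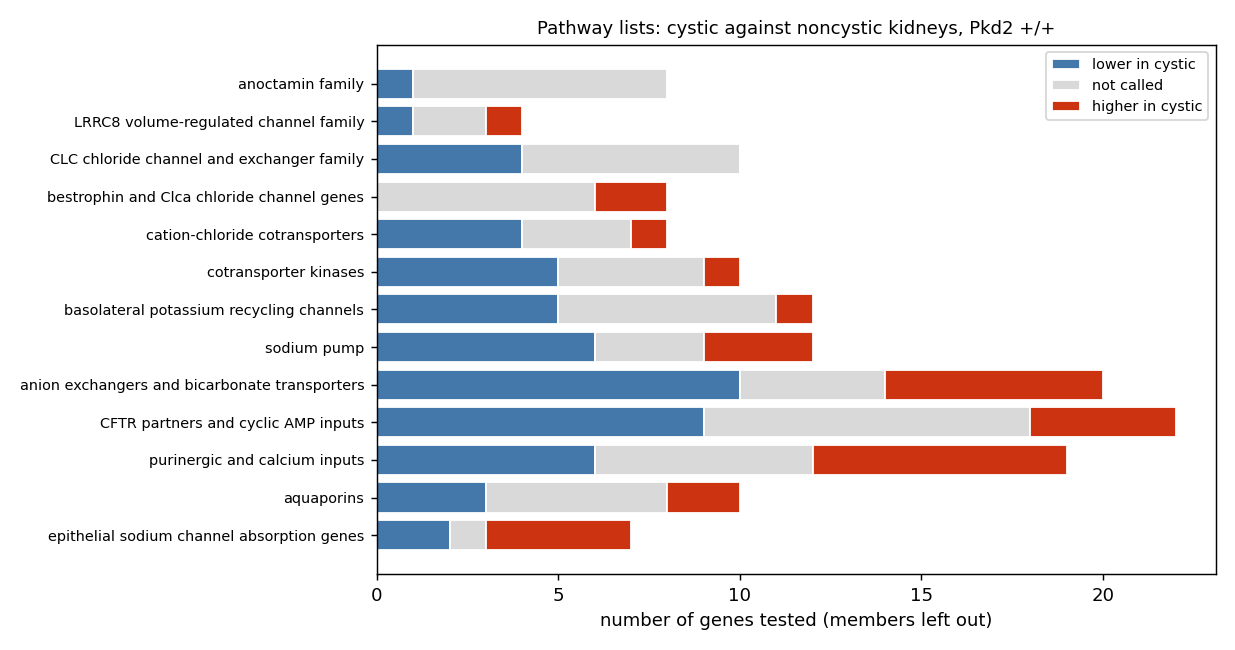
Number of genes tested (horizontal axis) in each of 13 lists that were called lower, not called or called higher in cystic against noncystic *Pkd2* +/+ kidneys by edgeR, members left out. The largest number of calls in 1 list is 16 of 20 among anion exchangers and bicarbonate transporters (6 higher and 10 lower). Of all genes tested, 31.1% were called.

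Among the close relatives of the members, 1 of 8 other anoctamins passed: *Ano2*, a calcium-activated channel of sensory cells, which had 0 reads in all 3 cystic *Pkd2* +/+ mice and 0.201 ± 0.179 CPM in the noncystic ones (SD, n = 3), too few for a fold change. It did not pass with limma-trend, with only the compared groups fitted, or without mouse 19, 20, 25, 26 or 27. Of the 4 other Lrrc8 subunits, which join *Lrrc8a* in the volume-regulated channel and set what it conducts, *Lrrc8e* rose (3.01 ± 0.951 to 5.62 ± 0.935 CPM; log2 fold change 0.90, adjusted p = 0.00783) and *Lrrc8d* fell (77.2 ± 9.09 to 62.3 ± 5.38 CPM; -0.31, adjusted p = 0.0204), by the edgeR test. *Lrrc8e* did not pass without mouse 21 (0.66, adjusted p = 0.0515), and *Lrrc8d* did not without mouse 21 (-0.23) or 26 (-0.24) or with library totals (-0.15). Of 10 other genes of the CLC family, 4 were called lower and 0 higher, with a median log2 fold change of -0.24, beside -0.39 for *Clcn2*. Among them was *Bsnd* (-1.13), an accessory channel subunit. Of 8 bestrophin and Clca genes 2 passed, *Clca3a2* (2.28) and *Clca3a1* (1.13), both higher. These are near copies of each other, and reads that fit both may be missing from the counts.

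Of 8 other cation-chloride cotransporters, 4 fell and 1 rose. *Slc12a1*, the thick ascending limb relative of *Slc12a2*, was 1674 ± 102 CPM in noncystic and 854 ± 107 CPM in cystic *Pkd2* +/+ kidneys (SD, n = 3 each; log2 fold change -0.97), and *Slc12a3*, that of the distal convoluted tubule, fell by 1.70 on the log2 scale. *Slc12a2* itself gave -0.08. Of 10 genes of the kinase pathway that sets the activity of these transporters, 5 fell and 1 rose: *Wnk1* (-1.01) and *Klhl3* (-1.29), a regulator of Wnk kinases, were lower, and *Stk39* (0.52), the kinase SPAK that activates *Slc12a2*, was higher.

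Of 12 other potassium channels of the basolateral recycling list, 5 fell and 1 rose. *Kcnj15* (-1.34) and *Kcnj16* (-0.63) were lower and *Kcnq1* (0.79), a partner of cyclic AMP-driven secretion in other epithelia, was higher. Of 12 sodium pump genes 6 fell and 3 rose, among them *Fxyd2* (-1.35), a modulator of the pump in reabsorbing tubules, and *Fxyd4* (1.35), a modulator in the collecting duct. Of 20 anion exchangers and bicarbonate transporters 10 fell and 6 rose. The proton exchanger *Slc9a3* (-1.51) and the carbonic anhydrase *Car4* (-1.13) were lower, and the sulfate transporter *Slc26a2* (1.11) was higher.

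The inputs that open the channels were mixed. Of 22 partners of *Cftr* and genes of cyclic AMP signalling, 9 fell and 4 rose, with the scaffolds *Pdzk1* (-1.05) and *Slc9a3r2* (-0.77) lower and the phosphodiesterase *Pde3b* (0.98) higher. Of 19 purinergic and calcium genes, which act upstream of *Ano1*, *Ano6* and *Kcnn4*, 7 rose and 6 fell: the ATP release channel *Panx1* was 5.63 ± 0.159 CPM in noncystic and 14.6 ± 1.47 CPM in cystic *Pkd2* +/+ kidneys (SD, n = 3 each; log2 fold change 1.37), *Itpr3*, a calcium release channel, rose by 1.07 and *P2ry6*, a nucleotide receptor, by 1.06. Of 10 aquaporins 3 fell, *Aqp1* (-1.10), *Aqp7* (-1.35) and *Aqp11* (-1.16), and 2 rose. Of 7 genes of absorption through the epithelial sodium channel 4 rose and 2 fell, with the 3 channel subunits *Scnn1a* (0.81), *Scnn1b* (1.26) and *Scnn1g* (1.30) among those that rose. *Scnn1b*, *Scnn1g* and *Fxyd4* are also principal cell markers, and the summed CPM of that list was 1356 to 1473 in noncystic and 2301 to 3950.2 in cystic *Pkd2* +/+ kidneys.

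With the deletion in cystic kidneys, 7 of these 150 genes passed (4.67%, against 2.23% of all genes), 6 higher and 1 lower, with a median of 0.065. The share over all genes depends on the filter. Among genes with at least 10 counts in every mouse it was 4.48%. Then 6 transport genes were called higher and 2 lower, of a number that is not given here. *Slc12a1* was 854 ± 107 CPM with *Pkd2* +/+ and 1624 ± 95.6 CPM with Δ17/Δ17 (SD, n = 3 each; log2 fold change 0.93, adjusted p = 0.000704 by edgeR). *Bsnd* (0.74), *Slc9a3* (0.78), *Aqp1* (0.68) and the potassium channel *Kcnn1* (0.94), a relative of *Kcnn4*, were among the others that were higher, and the pump modulator *Fxyd5* (-0.89) was lower. Of these, *Aqp1*, *Kcnn1* and *Fxyd5* did not pass without mouse 27 or 28, and *Kcnn1* and *Fxyd5* also without mouse 29. Here the thick ascending limb markers, which include *Slc12a1*, summed to 1847 to 2519 CPM with *Pkd2* +/+ and 3637 to 3812 CPM with Δ17/Δ17. The proximal tubule markers summed to 5024 to 6645 CPM and 6939 to 8327 CPM in these groups. Of the former 3 of 6 were called higher and of the latter 3 of 8, with 0 lower in either list. The part of these segments in the calls of the deletion was not tested. By edgeR, the deletion in noncystic kidneys and the interaction gave 0 of 150 each. DESeq2 gave 0 for the former and, for the interaction, 4 higher and 1 lower. Among Δ17/Δ17 mice, 67 of 150 passed between cystic and noncystic kidneys (44.7%), 24 higher and 43 lower, with a median of -0.107. Of all genes tested 23% passed in that comparison, and of the genes with at least 10 counts in every mouse 39.5%. Under that filter 22 transport genes were called higher and 49 lower, of a number that is not given here. With library totals the split of the transport genes was 36 higher and 35 lower.

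For each member that passed between cystic and noncystic *Pkd2* +/+ kidneys, the genes most like it over the 12 mice were sought among 13670 genes named in the table whose average log2CPM reached 1, by the root mean square difference of log2CPM after centring each gene on its own mean. Those nearest to *Clcn2* were *Elmod3* (0.0624) and *Wdr91* (0.0684), and those nearest to *Lrrc8a* were *Igip* (0.139) and *Ginm1* (0.148). The distances for *Lrrc8a* were the larger.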

How the data were processed

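Whole kidney RNA of 12 mice was sequenced. The authors checked reads with FastQC 0.11.8, trimmed them with Trim Galore 0.6.3, aligned them to GRCm38 with STAR 2.5.3a and deposited STAR's raw counts per gene (Ensembl release 94 models), not normalized; the strand column is not given in the sources used here, so antisense overlaps cannot be told apart. Coordinates, exons and 3′-UTRs came from GENCODE M21 (54495 of 54532 identifiers found); 343 unnamed genes held 0.0225% of the reads.

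The counts were tested with edgeR 4.0.16 under R 4.3.3, and with limma 3.58.1 and DESeq2 1.42.0 as alternatives. The limma-trend run took library totals in place of TMM factors, so it differs from the main test in scaling too. Genes whose average log2CPM fell below -3 were dropped, which left 24642. Tests were quasi-likelihood tests (edgeR) with TMM factors, 1 mean per group over 12 mice (8 residual degrees of freedom), Benjamini-Hochberg adjustment over all genes and a threshold of 0.05. Each replicate pair of a group differed beyond sampling noise (chi-square per degree of freedom 8.88 to 24.3). *Xist* exceeded 100 CPM in 1, 2, 2 and 1 of the 3 mice of the groups, and the labels give no sex.

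The members and lists were chosen with earlier results of these data known. Besides the members, text names were fixed by rule: the first 3 called genes of each list by adjusted p between cystic and noncystic *Pkd2* +/+ kidneys, the first 2 for the deletion in cystic kidneys, the first 2 of a marker list, and the 2 nearest genes of a called member. Some genes that the rule names are not reported here. The analysis was tested on simulated counts. The alternatives were other tests, scalings, filters, fits, a covariate (*Xist*), a stricter threshold and each mouse left out.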

Additional observations from a re-analysis of the deposited data

How the results depend on the processing

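No paired analysis was possible because the labels name no litters or pairs, and the replicate numbers only run on from group to group. For cystic against noncystic *Pkd2* +/+ kidneys, 4 members were called with library totals in edgeR and 1 at an adjusted p under 0.01, and 1 to 3 with each mouse left out (3 without mouse 25, 1 without mouse 21, 26 or 27), against 2. Among Δ17/Δ17 mice it was 1 at an adjusted p under 0.01 and 0 to 2 with each mouse left out, against 3. For the deletion in cystic kidneys, the other transport genes called numbered 21 with DESeq2, 32 without the filter on low counts, 4 with only the compared groups, 4 at an adjusted p under 0.01, and 4 to 12 with each mouse left out (12 without mouse 25, 4 without mouse 27 or 28), against 7. Over all genes the deletion in cystic kidneys called 549, against 1128 with DESeq2, 1639 without the filter, 167 with only the compared groups and 119 at an adjusted p under 0.01, and 118 to 861 with each mouse left out (861 without mouse 25, and 130, 127 and 118 without mouse 27, 28 and 29). The interaction called 3, against 134 with DESeq2, 566 without the filter, 0 to 13 in the other settings and 0 to 61 with each mouse left out (61, 48 and 57 without mouse 25, 26 and 30), and the deletion in noncystic kidneys 1, against 3 with DESeq2, 124 without the filter and 0 to 2 with each mouse left out. Mean levels with the longest transcript as the length were 0.865 CPM per kb for *Cftr*, 7.43 for *Ano1*, 22.9 for *Ano6*, 11.1 for *Slc12a2*, 0.418 for *Kcnn4* and 5.84 for *Clcn2*; for *Lrrc8a* over its unshared exon bases the level was 13.5.

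Signs turned only in differences that did not pass with TMM factors. For cystic against noncystic *Pkd2* +/+ kidneys, library totals gave *Cftr* 0.07 in limma-trend and 0.06 in edgeR, and *Slc12a2* 0.09 and 0.08. These share the same change of scaling. *Slc12a2* also gave 0.01 with *Xist* as a covariate, and -0.20 to 0.08 with each mouse left out. For the deletion in cystic kidneys, *Cftr* gave -0.03 with *Xist* as a covariate. With each mouse left out, that comparison gave -0.17 to 0.14 for *Cftr*, -0.05 to 0.18 for *Ano1*, -0.20 to 0.04 for *Slc12a2* and -0.20 to 0.07 for *Lrrc8a*. In noncystic kidneys it gave -0.03 to 0.28 for *Cftr*, -0.01 to 0.05 for *Ano6* and -0.03 to 0.33 for *Slc12a2*, and the interaction -0.31 to 0.06 for *Cftr* and -0.12 to 0.10 for *Clcn2*. The scalings change the values themselves. The filter changes more than the number of genes tested. Without it, *Ano1* had an adjusted p of 0.0228 between cystic and noncystic *Pkd2* +/+ kidneys by edgeR. This was below its unadjusted p of 0.0295 with the filter in the same test. Why the results turned on a mouse, a covariate, a filter or a fit was not tested. Of the log2 fold changes recomputed for single genes, 655 of the values from other settings and 456 of those with a mouse left out kept their direction and their side of the threshold. *Kcnn4* had 22 to 58 reads per mouse and *Cftr* 89 to 139, and the part of depth in their errors was not tested. The p-values with a mouse left out rest on 2 mice in that group.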
